A study of Mus musculus with 60 samples.

Results

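The insulin-like growth factor (IGF) system of cultured mouse fibroblasts was followed through 10 genes, which are the 2 ligands Igf1 and Igf2, the 2 receptors Igf1r and Igf2r, and the 6 binding proteins Igfbp2, Igfbp3, Igfbp4, Igfbp5, Igfbp6 and Igfbp7. The genes were chosen by name and each matched 1 of the 56980 gene rows in both count tables. IGF1 and IGF2 are secreted growth factors that signal for growth and survival through the tyrosine kinase IGF1R, whereas IGF2R, the mannose 6-phosphate receptor, carries IGF2 to lysosomes for breakdown. The binding proteins hold the ligands outside the cell, lengthen their life and limit or hand over their access to the receptor, and several of them also bind matrix or cell surface. Fibroblasts secrete most of these proteins, and senescent fibroblasts are known for releasing several of the binding proteins.

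The RNA-seq libraries numbered 60, with 3 in each of 20 groups, and all came from mice of a C57BL6J|FVB hybrid background. Cells were tail tip fibroblasts unless stated, were at passage 3 or less and were grown at 3% O2. In the reprogramming experiment, D/KO cells (labelled 4FJ_ERCC1_(d/-), male, 8 weeks old) carried a single, truncated allele of the DNA repair gene Ercc1, and WT cells were labelled 4FJ_(+/-)_OCT4-GFP (female, 22 weeks old). The D/KO cells also carried a doxycycline-inducible OSKM cassette (the reprogramming factors Oct4, Sox2, Klf4 and Myc) at Col1a1 and a transactivator at ROSA26, and the WT label carries 4FJ too. Both lines were collected at days 0, 2 and 4 of doxycycline at 2 µg/ml (D0, D2, D4). Each day also had a set with VC, which was ascorbic acid at 50 µg/ml and the GSK3 inhibitor CHIR-99201 (as the labels spell it) at 3 µM (D0+VC, D2+VC, D4+VC). In the inhibitor experiment, D/KO cells (labelled ERCC1_(d/-), with no 4FJ in the label, female, 4 weeks old) received nothing or, for 3 days, 1 of 4 inhibitors of TGFb-family receptors. Repsox and Vactosertib were given at 0.1 µM, and A83-01 and DMH-1 at 1 µM. Repsox and A83-01 are described as inhibitors of the TGFb receptor ALK5, Vactosertib as an inhibitor of ALK5 and ALK2, and DMH-1 as an inhibitor of the bone morphogenetic protein receptor ALK2. The same table held untreated WT tail tip and WT skin fibroblasts (ERCC1_(+/+), female, 14 weeks old) and 3 WT libraries of the 4FJ line labelled TGFB, which had no control of their line in that table and entered no comparison. D/KO and WT also differed in sex, age and line in the reprogramming experiment and in age in the inhibitor experiment, and these cannot be told apart from genotype. Nothing states that the 3 libraries of a group came from separate cultures or animals, so the p-values measure the spread between these libraries, which may be technical.

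Total counts were 16538374 to 18484951 per library in the reprogramming table and 17102639 to 30599138 in the inhibitor table. Levels are CPM, counts relative to the library's total, scaled by the trimmed mean of M values (TMM), changes are log2 fold changes ± SE (n = 3 libraries a group), and p-values are those of edgeR's quasi-likelihood test adjusted over all genes tested, with a call at an adjusted p under 0.05. Ercc1 was read at 11.9, 11.9 and 18.6 CPM in D/KO D0 and at 21.8, 21.9 and 17.98 CPM in WT D0 (log2 fold change -0.54 ± 0.16, adjusted p = 0.00833). In the inhibitor table Ercc1 did not separate the labels, at 20.6, 20.3 and 20.9 CPM in the control libraries labelled D/KO and 19.2, 13.3 and 21.7 CPM in WT tail tip (0.19 ± 0.16, adjusted p = 0.394), so the libraries there are referred to as labelled D/KO. Pou5f1 (Oct4) was read at no more than 2.88 CPM in every day 0 library of the reprogramming table and at 12.5 CPM or more in every library with doxycycline. Fibroblast markers summed to at least 33098 CPM in every library of the reprogramming table. The endothelial markers Pecam1, Cdh5, Kdr and Tek summed to 512 to 599 CPM in D/KO D0 and 14.4 to 17.2 CPM in WT D0, and Pecam1 alone stood at 191 to 213 CPM and 0.110 to 0.161 CPM. Keratinocyte markers summed to 3.46 to 5.29 CPM in D/KO D0 and 22.2 to 29.4 CPM in WT D0 (3 of 6 called lower, 0 higher). Leukocyte markers summed to 9.09 to 12.97 CPM and 20.1 to 41.8 CPM (4 of 5 called lower, 0 higher), and muscle markers to 33.1 to 79.9 CPM and 14.1 to 17.4 CPM (2 of 2 tested called higher). Endothelial cells express several of the binding proteins, and the part of these markers in any difference between the D/KO and WT lines was not tested. In bulk RNA, fewer cells of a type and less RNA per cell cannot be told apart.

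Per length of transcript, Igfbp3, Igfbp4, Igfbp6 and Igfbp7 were above both receptors and both ligands in the 4 untreated tail tip groups, and Igf2 was lowest. Igfbp2 at 15.99 CPM per kilobase was below Igf2r in D/KO D0, as it was in the control libraries labelled D/KO, and in WT tail tip of the inhibitor table Igf1 at 28.2 CPM per kilobase was above Igfbp5 at 17.4. In WT D0, Igfbp5 led at 1104 ± 122 CPM per kilobase of exon (SD, n = 3), followed by Igfbp4 at 528 ± 30.2 and Igfbp7 at 501 ± 26.4, which overlapped each other. In D/KO D0, Igfbp7 led at 590 ± 127 CPM per kilobase, and Igfbp4 at 327 ± 34.1 and Igfbp5 at 302 ± 77.9 overlapped. Igf2r was above Igf1r in both lines, at 29.9 ± 2.26 against 14.4 ± 1.19 CPM per kilobase in D/KO D0 and 33.2 ± 1.09 against 14.5 ± 0.89 in WT D0, with no overlap between the 2 receptors. Igf1 came below both receptors, at 2.11 ± 0.37 CPM per kilobase in D/KO D0 and 1.61 ± 0.34 in WT D0. Igf2 was close to unread, with at most 6 counts in any library of these 2 groups.

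**Figure D1:**
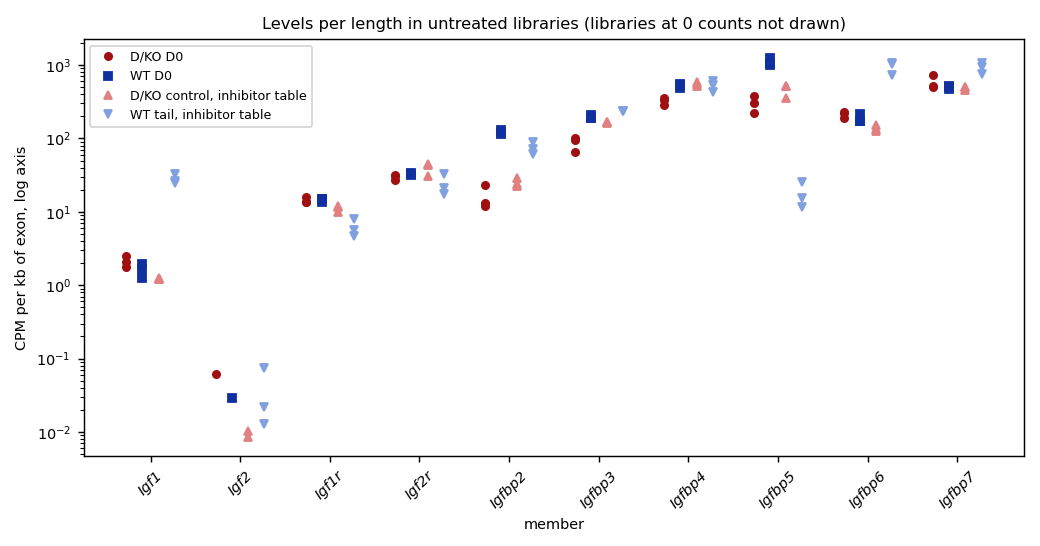
Level of each of the 10 genes in untreated libraries, in CPM per kilobase of exon on a log axis, with 1 point per library (n = 3 a group; libraries at 0 counts are not drawn). A binding protein lies highest and Igf2 lowest in all 4 groups, Igfbp5 is near 1104 in WT D0 but near 17.4 in WT tail of the inhibitor table, and Igf1 is near 28.2 in that last group against 1.23 to 2.11 in the other 3.

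The genes lie on 7 chromosomes (GRCm39), and 2 of the binding protein genes are neighbours. Igfbp2 (chr1:72863662-72891633, plus strand) and Igfbp5 (chr1:72897091-72914043, minus strand) end tail to tail, 5457 bases apart. Igf1 lies at chr10:87694127-87772904, Igf2 at chr7:142204503-142220553, Igf1r at chr7:67602575-67883416 and Igf2r at chr17:12901293-12988551. Igfbp3 lies at chr11:7156086-7163923, Igfbp4 at chr11:98932070-98945218, Igfbp6 at chr15:102052797-102057946 and Igfbp7 at chr5:77497087-77555888. Exons of Igf2, Igf1r and Igfbp7 overlap exons of another gene in the tables, those of Igfbp3 overlap exons of 2 opposite-strand genes outside the tables, and since the strand setting of the counting is not given in the sources used here, reads of those stretches may be shared or lost. Igf2 also overlaps exons of Gm49394 on its own strand, so its reads there may be lost under any strand setting.

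Upstream sequences of 3 binding protein genes are shown because their transcripts gave the contrasting patterns described next: Igfbp2 changed with VC and with the ALK5 inhibitors, Igfbp3 with DMH-1, and Igfbp6 in every doxycycline series. None changed with these treatments only. Igfbp2 and Igfbp3 also passed at day 4 in every doxycycline series, Igfbp3 with VC alone in both lines, and Igfbp6 with VC alone in D/KO. Each is the 250 bases before a RefSeq start (for Igfbp2, the first of 2), taken from RefSeq on GRCm38.p6, read 5′ to 3′ on the strand of the gene and found once in GRCm39, at the GRCm39 positions given. Capitals mark matches on either strand to CTTTGA (the TCF/LEF core, the factors downstream of GSK3 inhibition), CAGAC (a Smad half-site, the factors downstream of TGFb-family receptors), CACGTG (an E-box, bound by Myc) or ATGCAAAT (the octamer, bound by Oct4).
Igfbp2 (chr1:72863389-72863638, plus strand): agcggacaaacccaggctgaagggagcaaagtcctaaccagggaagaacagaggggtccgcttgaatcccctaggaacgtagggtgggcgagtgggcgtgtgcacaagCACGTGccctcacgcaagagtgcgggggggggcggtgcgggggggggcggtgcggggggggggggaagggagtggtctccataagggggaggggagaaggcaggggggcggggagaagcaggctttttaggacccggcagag
Igfbp3 (chr11:7163924-7164173, minus strand): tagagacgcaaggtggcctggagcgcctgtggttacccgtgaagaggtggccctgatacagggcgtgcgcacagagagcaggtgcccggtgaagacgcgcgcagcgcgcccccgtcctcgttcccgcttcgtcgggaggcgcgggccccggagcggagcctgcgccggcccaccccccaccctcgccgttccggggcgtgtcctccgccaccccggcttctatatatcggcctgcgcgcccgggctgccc
Igfbp6 (chr15:102052371-102052620, plus strand): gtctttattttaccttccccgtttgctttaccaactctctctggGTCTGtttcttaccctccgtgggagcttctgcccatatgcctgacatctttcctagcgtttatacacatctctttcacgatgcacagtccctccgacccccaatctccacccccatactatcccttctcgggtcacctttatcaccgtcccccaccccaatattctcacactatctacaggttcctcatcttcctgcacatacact
The Igfbp2 window held 1 CACGTG and none of the other 3 motifs, while the window of its other start (chr1:72864296-72864545), which is not printed, held 1 CAGAC and none of the others, the Igfbp6 window held 1 CAGAC on the opposite strand and none of the others, and the Igfbp3 window held none of the 4. Over all 32851 such windows, 13.8% held CTTTGA, 42.2% CAGAC, 6.02% CACGTG and 1.6% ATGCAAAT. Both strands were searched, neighbouring motifs may share end letters, and a match describes only these letters.

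VC alone, before any doxycycline, raised Igf1 and Igfbp2 in both lines. The question of this comparison is what the small molecules did to the starting cells. Igf1, the main circulating and local growth factor of the family, was read at 20.7, 24.7 and 17.4 CPM in D/KO D0 and 81.8, 83.7 and 84.2 CPM in D/KO D0+VC. In WT it was read at 19.001, 12.4 and 16.6 CPM without VC and 66.9, 71.8 and 81.1 CPM with it. All libraries with VC were above all without, by a log2 fold change of 1.99 ± 0.18 (adjusted p = 3.23e-11) in D/KO and 2.20 ± 0.18 (adjusted p = 4.51e-12) in WT.

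Igfbp2, a binding protein that can also attach to integrins and proteoglycans, moved further. It was read at 42.3, 24.1 and 22.2 CPM in D/KO D0 and 572, 281 and 354 CPM in D/KO D0+VC. In WT it was read at 238, 216 and 213 CPM and 2102, 1718 and 1424 CPM. The groups did not overlap in either line, and the log2 fold change was 3.77 ± 0.26 (adjusted p = 5.78e-14) in D/KO and 2.97 ± 0.24 (adjusted p = 5.99e-12) in WT. The difference between the lines in the effect of VC, a comparison added after the values were seen, did not pass for either gene. D/KO minus WT, it was -0.21 ± 0.24 (adjusted p = 0.624) for Igf1 and 0.80 ± 0.33 (adjusted p = 0.0954) for Igfbp2, with 95% intervals of -0.70 to 0.29 and 0.13 to 1.46.

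Other members passed with VC alone in 1 line or in both. Igfbp3 rose in D/KO (0.62 ± 0.13, adjusted p = 0.000561) and fell in WT (-0.50 ± 0.13, adjusted p = 0.00392), an added difference between the lines of 1.12 ± 0.19 (adjusted p = 8.09e-05). The fall in WT rested on D0+VC replicate 3, without which it was -0.37 (adjusted p = 0.0571). Igfbp4 and Igfbp6 fell in D/KO (-0.76 ± 0.14, adjusted p = 3.69e-05 and -0.66 ± 0.15, adjusted p = 0.000705), Igf2r rose in WT (0.34 ± 0.12, adjusted p = 0.0305), and Igfbp5 fell in WT (-0.86 ± 0.18, adjusted p = 0.000302). In WT, Igfbp4 was at -0.34 (adjusted p = 0.0577) and passed under 4 other settings (adjusted p 0.0029 to 0.0435), and the difference between the lines passed neither for Igfbp4 (-0.43, adjusted p = 0.129) nor for Igf2r (-0.24, adjusted p = 0.383). Igf1r in WT was at -0.28 (adjusted p = 0.0653) and passed under 2 other settings (adjusted p 0.0205 and 0.0405). The Igf2r call was lost without any 1 of the 3 WT D0 libraries or D0+VC replicate 2 or 3 (adjusted p 0.0513 to 0.13). In all, 5 of 10 members passed in D/KO, against 26.1% of all genes tested, and 5 of 10 in WT, against 29.4%. The effect of VC differed between the lines for 3 of 10 members (Igfbp3, Igfbp5 and Igfbp6), against 15.3%. The summed fibroblast markers, of which 6 of 9 were called higher in each line and 1 lower in D/KO, went from 80061 to 119027 CPM to 183611 to 253183 CPM in D/KO and from 52060 to 53832 CPM to 155628 to 171384 CPM in WT. Endothelial markers went from 512 to 599 CPM to 180 to 217 CPM in D/KO, with 4 of 4 called lower, and from 14.4 to 17.2 CPM to 4.67 to 7.08 CPM in WT, with 1 of 4 called lower. Muscle markers went from 14.1 to 17.4 CPM to 40.3 to 49.1 CPM in WT. The part of these markers in the levels of the members was not tested.

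With doxycycline, Igf1 fell in several of the series. Without VC, Igf1 fell in D/KO, with changes of -0.73 ± 0.18 (adjusted p = 0.00191) at day 2 and -0.51 ± 0.18 (adjusted p = 0.022) at day 4. In WT it passed at day 2 only (-0.65 ± 0.18, adjusted p = 0.0163) and stood at -0.04 ± 0.18 (adjusted p = 0.9) at day 4. The D/KO day 4 call was lost without D0 replicate 2 or D4 replicate 2 or 3 (-0.34 to -0.50, adjusted p 0.0546 to 0.164) and with only the groups compared in the fit (-0.49, adjusted p = 0.0919), and the WT day 2 call without D0 replicate 1 or 3 or D2 replicate 3 (-0.50 to -0.62, adjusted p 0.0641 to 0.145).

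With VC the fall of Igf1 was measured from the raised D0+VC level. D/KO read 9.73, 9.06 and 6.995 CPM at D2+VC and 7.14, 6.13 and 4.00 CPM at D4+VC, and the day 4 change was -3.85 ± 0.20 (adjusted p = 1.66e-18). WT read 24.2, 24.03 and 20.4 CPM and 22.3, 19.7 and 21.0 CPM, with a day 4 change of -1.80 ± 0.17 (adjusted p = 1.08e-10). Set against day 0 without VC instead, D/KO D4+VC was still lower (-1.86, adjusted p = 2.72e-10), while WT D2+VC was higher (0.52, adjusted p = 0.0192) and WT D4+VC did not pass (0.39, adjusted p = 0.0766). The fall from D0+VC to D4+VC was larger in D/KO, with a difference (D/KO minus WT) of -2.05 ± 0.25 (adjusted p = 1.1e-07), and against day 0 without VC that difference was -2.25 (adjusted p = 3.07e-08).

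Igf2, the fetal growth factor of the imprinted Igf2-H19 locus, went from almost no reads to few. It was counted 0, 6 and 0 times in the 3 D/KO D0 libraries and 29, 20 and 10 times at D4. In WT it was counted 3, 0 and 0 times at D0 and 20, 10 and 22 times at D4, and 5, 7 and 0 times at D0+VC and 45, 26 and 31 times at D4+VC. In each of these 3 comparisons every day 4 library was above every day 0 library. The ratio of rates was 8.68 (exact 95% interval 3.76 to 24.6) in D/KO and 17.3 (5.59 to 86.4) in WT without VC, and 7.42 (4.07 to 14.8) in WT with VC, where the intervals cover counting error only. In D/KO with VC the counts were 0, 0 and 2 at D0+VC and 3, 6 and 2 at D4+VC, a ratio of 4.23 (0.924 to 39.3). At day 2 the ratios without VC were 2.18 (0.788 to 6.93) in D/KO and 3.01 (0.75 to 17.3) in WT. With VC they were 3.3 (0.659 to 31.9) in D/KO and 2.78 (1.41 to 5.86) in WT. The gene passed the filter on low counts only through the groups where it was higher, so that its calls by edgeR and these ratios are not used as support, and the counts of members called in the day and inhibitor comparisons are also given without it.

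Both receptors changed in some series. Igf1r fell in D/KO with VC, from 212, 237 and 218 CPM at D0+VC to 168, 141 and 144 CPM at D4+VC (-0.55 ± 0.11, adjusted p = 9.86e-05), and rose in WT without VC, from 252, 226 and 252 CPM to 315, 321 and 325 CPM (0.40 ± 0.11, adjusted p = 0.00914). The groups did not overlap in either case. The WT rise had an adjusted p of 0.0516 without D0 replicate 2. Igf2r fell in D/KO without VC, from 286, 294 and 254 CPM at D0 to 186, 146 and 233 CPM at D4 (-0.56 ± 0.12, adjusted p = 0.000334), and with VC (-0.53 ± 0.12, adjusted p = 0.000405). In WT it passed at neither day in either series, although day 2 with VC was at 0.39 (adjusted p = 0.0116) from day 0 without VC, and the D/KO change without VC at day 4 differed from the WT change by -0.66 ± 0.17 (adjusted p = 0.00763). Across the 12 groups Igf1r spanned 2.12-fold and Igf2r 2.15-fold between the lowest and highest group mean, close to the 2.43-fold of Igfbp7, while the other binding proteins spanned 4.91-fold (Igfbp6) to 326-fold (Igfbp2) and Igf1 14.5-fold.

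**Figure D2:**
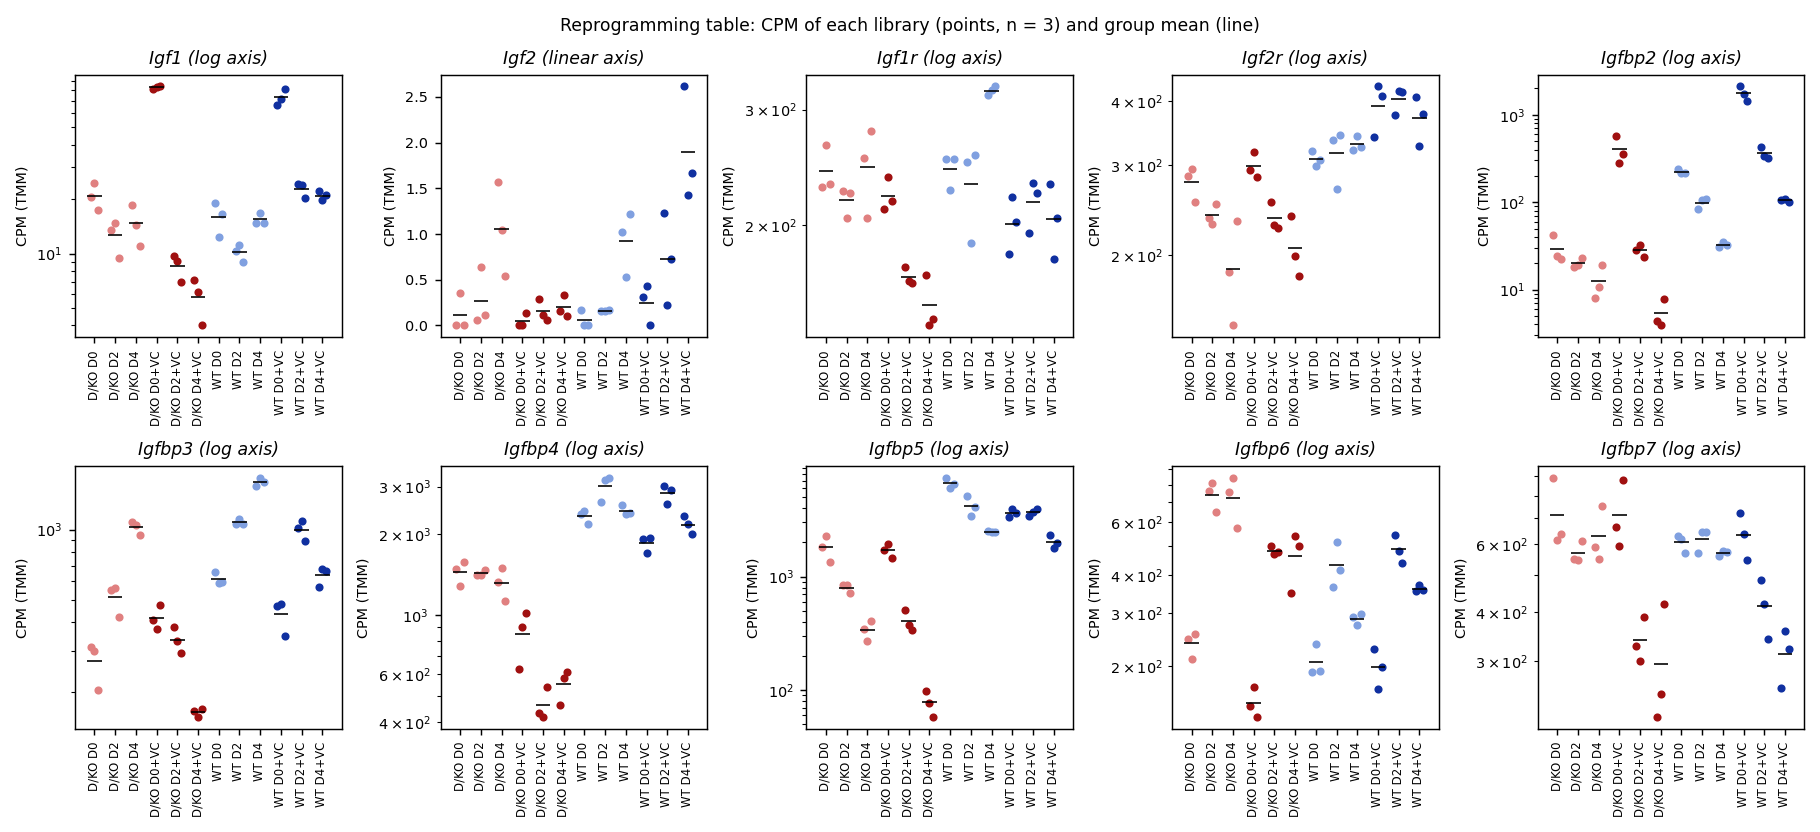
CPM of the 10 genes in the 36 libraries of the reprogramming table, with 1 point per library, a line at the mean of the 3 libraries of a group, and a log axis except for Igf2. Igf1 and Igfbp2 are high in the 2 groups with VC at day 0 (Igfbp2 near 403 CPM in D/KO and 1748 CPM in WT), and Igfbp5 falls from 1812 CPM in D/KO D0 to 78.1 CPM in D/KO D4+VC.

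Igfbp2 fell over 4 days of doxycycline in both lines with and without VC. Without VC it reached 8.09, 10.8 and 18.99 CPM at D/KO D4 and 30.3, 34.8 and 32.6 CPM at WT D4, all below their own day 0 libraries. The changes were -1.22 ± 0.25 (adjusted p = 0.000179) and -2.77 ± 0.25 (adjusted p = 5.09e-11), a difference between lines of 1.55 ± 0.35 (adjusted p = 0.00161), smaller in D/KO, which began lower. With VC it reached 4.44, 3.90 and 7.74 CPM at D/KO D4+VC and 105, 110 and 100 CPM at WT D4+VC.

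The changes from D0+VC were -6.23 ± 0.30 (adjusted p = 3.14e-19) in D/KO and -4.06 ± 0.26 (adjusted p = 1.81e-15) in WT, with a difference of -2.17 ± 0.35 (adjusted p = 1.2e-05). Since VC alone had raised the gene, the size of these falls depended on the baseline: from day 0 without VC they were -2.45 (adjusted p = 2.03e-09) in D/KO and -1.09 (adjusted p = 0.000244) in WT. At day 2 with VC the same exchange of baseline took D/KO from -3.84 to -0.06 (adjusted p = 0.851) and WT from -2.27 to 0.70 (adjusted p = 0.0142).

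Igfbp5, a matrix-binding member and the most abundant per length in WT D0, fell at both days in every series except at WT day 2 with VC, where it did not pass. The WT day 2 call without VC (-0.65) was lost without D0 replicate 1 or D2 replicate 2 or 3 (adjusted p 0.0515 to 0.105). D/KO read 1824, 2275 and 1339 CPM at D0, 839, 841 and 719 CPM at D2 and 347, 270 and 407 CPM at D4. With VC it read 1708, 1954 and 1453 CPM at D0+VC, 507, 373 and 339 CPM at D2+VC and 98.9, 77.1 and 58.4 CPM at D4+VC. No library of a later day overlapped an earlier one in either series.

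The day 4 changes in D/KO were -2.41 ± 0.19 (adjusted p = 3.86e-13) without VC and -4.45 ± 0.21 (adjusted p = 1.06e-19) with VC, and the 2 differed by -2.04 ± 0.25 (adjusted p = 1.09e-07). WT fell from 7422, 5975 and 6486 CPM to 2514, 2493 and 2456 CPM without VC (-1.41 ± 0.18, adjusted p = 1.54e-07) and from 3356, 3962 and 3653 CPM to 2327, 1784 and 1971 CPM with VC (-0.85 ± 0.18, adjusted p = 0.000179). The fall was larger in D/KO, with D/KO minus WT differences of -0.995 ± 0.25 (adjusted p = 0.00527) without VC and -3.60 ± 0.26 (adjusted p = 6.82e-13) with VC. At WT day 2 with VC the value was 0.02 ± 0.18 from D0+VC and -0.84 (adjusted p = 0.000265) from day 0 without VC. The endothelial markers fell in D/KO without VC over the same days, to 302 to 327 CPM at D4, but stood at 378 to 509 CPM at D4+VC against 180 to 217 CPM at D0+VC, where Igfbp5 fell furthest. Keratinocyte markers stood at 8.28 to 13.9 CPM at D/KO D0+VC and 401 to 529 CPM at D4+VC, fibroblast markers at 183611 to 253183 CPM and 33098 to 34271 CPM, and muscle markers at 42.3 to 58.3 CPM and 3.70 to 5.40 CPM. Without VC, D/KO fibroblast markers went from 80061 to 119027 CPM at D0 to 37370.5 to 38976 CPM at D4 (6 of 9 called lower, 1 higher). Keratinocyte markers there went from 3.46 to 5.29 CPM to 65.0 to 77.6 CPM. In WT, endothelial markers went from 14.4 to 17.2 CPM at D0 to 95.3 to 95.7 CPM at D4 and from 4.67 to 7.08 CPM at D0+VC to 98.1 to 116 CPM at D4+VC, and fibroblast markers from 155628 to 171384 CPM at D0+VC to 60912 to 72032 CPM at D4+VC. The part of these markers in the changes of any member was not tested.

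Igfbp3, the main serum carrier of IGF1, rose without VC in both lines. D/KO read 314, 303 and 204 CPM at D0 and 1081, 1049 and 950 CPM at D4 (1.91 ± 0.14, adjusted p = 5.96e-14). WT read 655, 588 and 596 CPM and 1547, 1670 and 1595 CPM (1.39 ± 0.14, adjusted p = 4.45e-10). No day 4 library overlapped a day 0 library, and the changes of the lines differed by 0.52 ± 0.19 (adjusted p = 0.0588), with a 95% interval of 0.14 to 0.90. That difference passed under 5 other settings (adjusted p 0.018 to 0.0466).

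With VC the lines changed in opposite directions. D/KO fell from 410, 373 and 473 CPM at D0+VC to 166, 157 and 169 CPM at D4+VC (-1.35 ± 0.14, adjusted p = 1.34e-10), while WT rose from 471, 477 and 349 CPM to 567, 674 and 666 CPM (0.56 ± 0.13, adjusted p = 0.000887). The difference between lines was -1.91 ± 0.19 (adjusted p = 1.38e-09), and against day 0 without VC it was -0.79 (adjusted p = 0.00212), with D/KO at -0.74 and WT at 0.05 (adjusted p = 0.788). In D/KO the day 4 change with VC minus that without VC was -3.26 ± 0.19 (adjusted p = 3.7e-15), a comparison added after the values were seen. That comparison passed for 6 of 10 members in D/KO, against 26.9% of all genes, and for 4 in WT, against 15.3%. At day 2 with VC, D/KO was at -0.32 ± 0.13 (adjusted p = 0.0471), a call lost under several settings (from -0.22 to -0.33 over the single libraries whose removal ended it) and of the opposite sign from day 0 without VC (0.30, adjusted p = 0.0687), and WT at 1.21 ± 0.14 (adjusted p = 6.3e-09).

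**Figure D3:**
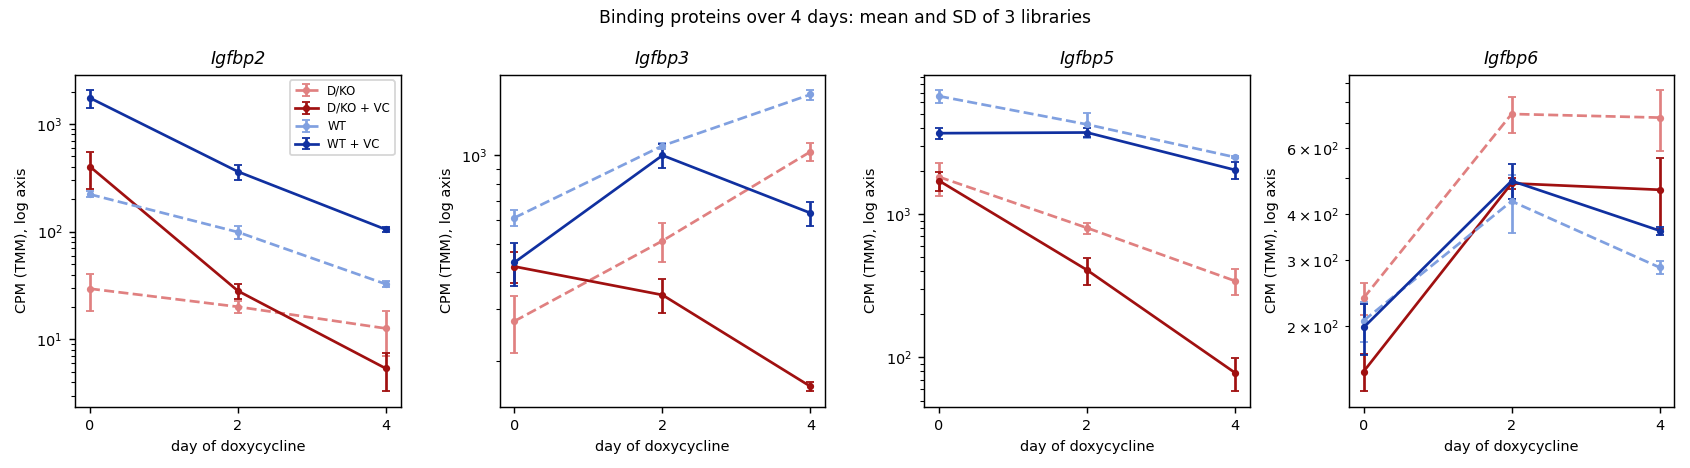
Mean CPM (points) and SD (bars) of 3 libraries on a log axis against the day of doxycycline for 4 binding proteins in D/KO and WT, with VC (solid) and without (dashed). Igfbp3 rises in both lines without VC (to 1026 CPM in D/KO and 1604 CPM in WT) but ends at 164 CPM in D/KO with VC, and Igfbp6 rises from day 0 to day 2 in all 4 series.

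Igfbp6, which prefers IGF2 over IGF1, rose in all 4 series at both days. D/KO read 247, 212 and 255 CPM at D0 and 762, 812 and 651 CPM at D2, and 147, 170 and 136 CPM at D0+VC and 502, 471 and 477 CPM at D2+VC. WT read 192, 236 and 192 CPM at D0 and 366, 516 and 416 CPM at D2. All day 2 libraries were above all day 0 libraries of their series. The changes ranged from 0.47 ± 0.14 (adjusted p = 0.0141) at WT day 4 to 1.68 ± 0.15 (adjusted p = 9.03e-12) at D/KO day 2 with VC, and the call at WT day 4 was lost without D0 replicate 1 (0.43, adjusted p = 0.0682) or replicate 3 (0.43, adjusted p = 0.0696). At day 4 the rise was larger in D/KO than in WT by 1.13 ± 0.20 (adjusted p = 0.000121) without VC and 0.76 ± 0.20 (adjusted p = 0.00475) with VC, the latter being 0.16 (adjusted p = 0.642) from day 0 without VC.

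Igfbp4, an inhibitory binding protein that the protease PAPP-A cleaves to release its ligand, and Igfbp7, which binds IGFs weakly, changed mainly with VC. Igfbp4 fell in D/KO from 631, 904 and 1019 CPM at D0+VC to 430, 418 and 539 CPM at D2+VC (-0.88 ± 0.14, adjusted p = 1.45e-06) and rose in WT over the same days (0.62 ± 0.14, adjusted p = 0.000549). The lines differed by -1.50 ± 0.19 (adjusted p = 6.58e-07). From day 0 without VC the WT value was 0.28 (adjusted p = 0.1). Without VC, Igfbp4 at WT day 2 was 0.37 (adjusted p = 0.0739) and passed under 2 other settings (adjusted p 0.024 and 0.0324). Igfbp7 fell with VC in both lines, with changes of -1.28 ± 0.18 (adjusted p = 2.52e-07) in D/KO and -1.03 ± 0.18 (adjusted p = 1.65e-05) in WT at day 4, and passed at neither day without VC, although D/KO day 2 passed with no filter on low counts (-0.33, adjusted p = 0.034). Its D4+VC libraries read 215, 247 and 421 CPM in D/KO and 255, 358 and 322 CPM in WT, below all D0+VC libraries of their line.

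Counted over the 10 members (9 without Igf2, in brackets), 4 (4) passed at D/KO day 2, where 27.4% of all genes passed, and 7 (6) at day 4, where 37% did. With VC, 9 (9) passed at D/KO day 2, against 47.4%, and 9 (9) at day 4, against 54.1%. In WT, 5 (5) passed at day 2 and 6 (5) at day 4, against 10.6% and 24.5%, and with VC 6 (6) and 7 (6), against 27.5% and 44.7%. The changes from day 0 differed between the lines for 0 members at day 2, 4 at day 4, 6 at day 2 with VC and 8 at day 4 with VC, where 6.54%, 14.3%, 13.9% and 29.4% of all genes differed. At day 2, edgeR gave an unadjusted p under 0.05 for 2 members (Igfbp5 and Igfbp6), DESeq2 called 0, and with no filter on low counts edgeR called 3 (Igfbp2, Igfbp5 and Igfbp6, adjusted p 0.0107 to 0.0318). The 6.54% belongs to the main fit, and shares of all genes under these other criteria were not counted. The comparisons of 1 line share their day 0 libraries. Over these series the members' 2 directions were mixed: at D/KO day 4 with VC, 1 member rose (Igfbp6, against 27.9% of all genes) and 8 fell (against 26.2%), and at WT day 4 with VC, 3 were called higher (Igfbp3, Igfbp6 and, by the limit above, Igf2, against 22.7%) and 4 fell (Igf1, Igfbp2, Igfbp5 and Igfbp7, against 22%).

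**Figure D4:**
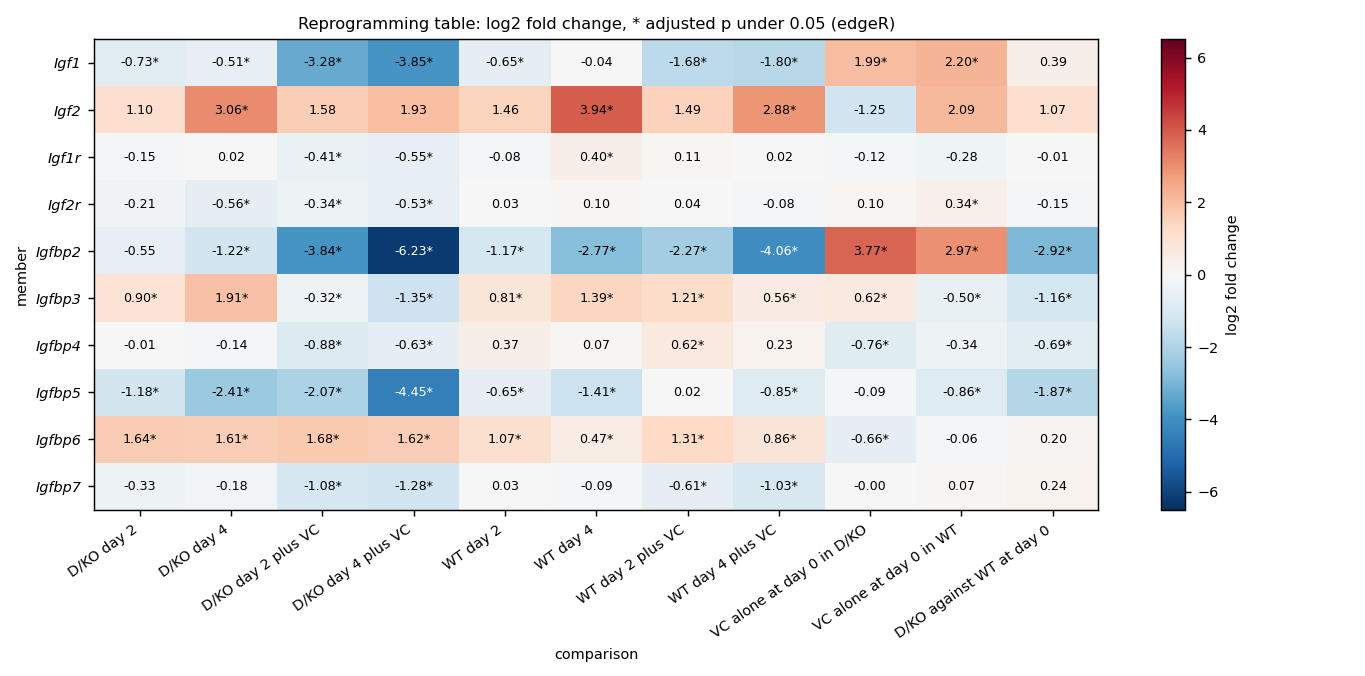
Log2 fold change of each gene (rows) in 11 comparisons of the reprogramming table (columns), with the value printed and an asterisk at an adjusted p under 0.05 by edgeR. Igfbp6 is positive in all 8 day comparisons, Igfbp2 and Igfbp5 are mostly negative there (Igfbp2 to -6.23), and Igf1 and Igfbp2 are positive with VC alone.

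Before any treatment, D/KO D0 and WT D0 differed in 4 of 10 members, against 43.2% of all genes. These were all binding proteins and all lower in D/KO: Igfbp2 (-2.92 ± 0.25, adjusted p = 7.13e-12), Igfbp5 (-1.87 ± 0.18, adjusted p = 1.96e-10), Igfbp3 (-1.16 ± 0.14, adjusted p = 9.61e-09) and Igfbp4 (-0.69 ± 0.14, adjusted p = 8.69e-05). The libraries of the 2 lines did not overlap for any of the 4. Igf1, Igf2 and the receptors did not pass, although Igf1 (0.39, adjusted p = 0.0744) passed under 3 other settings (adjusted p 0.0316 to 0.0447).

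The other pair of untreated lines, in the inhibitor table, gave a partly different picture. Igf1 stood at 259, 329 and 249 CPM in WT tail tip and 11.9, 12.1 and 12.5 CPM in libraries labelled D/KO (-4.52 ± 0.15, adjusted p = 2.85e-15). Igfbp5 stood at 93.0, 151 and 69.6 CPM in WT tail tip and 2133, 3166 and 3094 CPM in libraries labelled D/KO (4.74 ± 0.47, adjusted p = 6.8e-08), the opposite sign to the reprogramming lines. Igfbp6 was lower in the libraries labelled D/KO (-2.77 ± 0.22, adjusted p = 2.91e-09), as were Igfbp2 (-1.58 ± 0.23, adjusted p = 1.3e-05) and Igfbp7 (-0.94 ± 0.15, adjusted p = 2.95e-05). Igfbp3 was also lower (-0.50, adjusted p = 0.00099), and Igf1r was higher (0.88, adjusted p = 0.00391). Igfbp2 and Igfbp3 were thus lower in D/KO in both pairs of lines. In all 7 of 10 members passed, against 34.6% of all genes. The 2 tables were normalised separately and the 2 pairs of lines differ in age, sex and transgene, so the reversal of Igfbp5 is a pair of values and was not tested. Endothelial markers summed to 240 to 288 CPM in the libraries labelled D/KO and 57.7 to 75.8 CPM in WT tail tip (3 of 4 called higher, 1 lower), keratinocyte markers to 3.96 to 6.08 CPM and 14.8 to 17.98 CPM, and Schwann and melanocyte markers to 6.61 to 9.54 CPM and 2.27 to 2.61 CPM, and their part was not tested. H19, the RNA expressed from the locus beside Igf2, stood at 1099.5 to 1199.6 CPM in WT tail tip and 13.1 to 15.6 CPM in the control libraries labelled D/KO.

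Skin and tail tip WT fibroblasts of the same age also differed in the system. Igfbp3 stood at 67.8, 73.0 and 64.8 CPM in skin and 751, 734 and 737 CPM in tail tip (-3.43 ± 0.12, adjusted p = 1.65e-14), with no overlap. Igf1 (-2.23 ± 0.13, adjusted p = 5e-11), Igfbp4 (-1.42 ± 0.14, adjusted p = 7.72e-08) and Igfbp6 (-1.23 ± 0.21, adjusted p = 9.89e-05) were also lower in skin, and Igfbp5 was higher (1.86 ± 0.41, adjusted p = 0.00131). Here 6 of 10 members passed, against 34.2% of all genes. Skin replicate 1 read long transcripts lower than the rest of its group, with a slope of -0.469 log2 units per doubling of exon length, the steepest slope of the 60 libraries, and the part of this in Igfbp5 and in Igf1r (0.68 ± 0.22, adjusted p = 0.0227) was not tested. Muscle markers summed to 108 to 143 CPM in skin and 16.1 to 21.3 CPM in tail tip (3 of 3 tested called higher), and endothelial markers to 116 to 209 CPM and 57.7 to 75.8 CPM (3 of 4 called higher, 1 lower), and their part was not tested. The Igfbp5 call was lost with only the groups compared in the fit (1.88, adjusted p = 0.0565). The Igf1r call was lost without skin replicate 2 or 3 or tail tip replicate 1 or 3 (adjusted p 0.0631 to 0.139) and with only the groups compared (adjusted p = 0.165).

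Among the inhibitors, Igfbp2 rose with the 3 aimed at ALK5, while with DMH-1 it did not pass. Control libraries labelled D/KO read 43.6, 52.7 and 41.4 CPM, Repsox 301, 466 and 236 CPM and Vactosertib 235, 244 and 230 CPM. A83-01 read 786, 536 and 671 CPM and DMH-1 37.2, 35.1 and 42.9 CPM. The libraries of the 3 ALK5 inhibitors were all above the controls, and those of DMH-1 overlapped them.

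The log2 fold changes of Igfbp2 were 2.86 ± 0.24 (adjusted p = 2.08e-08) with Repsox, 2.36 ± 0.24 (adjusted p = 3.2e-07) with Vactosertib and 3.85 ± 0.25 (adjusted p = 2.73e-10) with A83-01, against -0.26 ± 0.23 (adjusted p = 0.624) with DMH-1. These 4 comparisons share the 3 control libraries. A83-01 and DMH-1, given at the same dose, differed by 4.11 ± 0.25 (adjusted p = 2.76e-10). Repsox and Vactosertib, also at 1 dose, differed by 0.50 (95% interval 0.03 to 0.97), with an adjusted p of 1. The doses of the first pair and the second differ, so A83-01 and Repsox are set side by side only.

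Igfbp3 passed with DMH-1 and with none of the 3 ALK5 inhibitors. It stood at 502, 533 and 532 CPM in the controls and 1246, 1083 and 1275 CPM with DMH-1 (1.20 ± 0.11, adjusted p = 4.02e-07), with no overlap. Repsox read 460, 464 and 465 CPM, Vactosertib 461, 456 and 531 CPM and A83-01 463, 519 and 480 CPM. The difference between A83-01 and DMH-1 was -1.30 ± 0.11 (adjusted p = 1.92e-08), while Repsox and Vactosertib differed by -0.06 (95% interval -0.29 to 0.17).

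**Figure D5:**
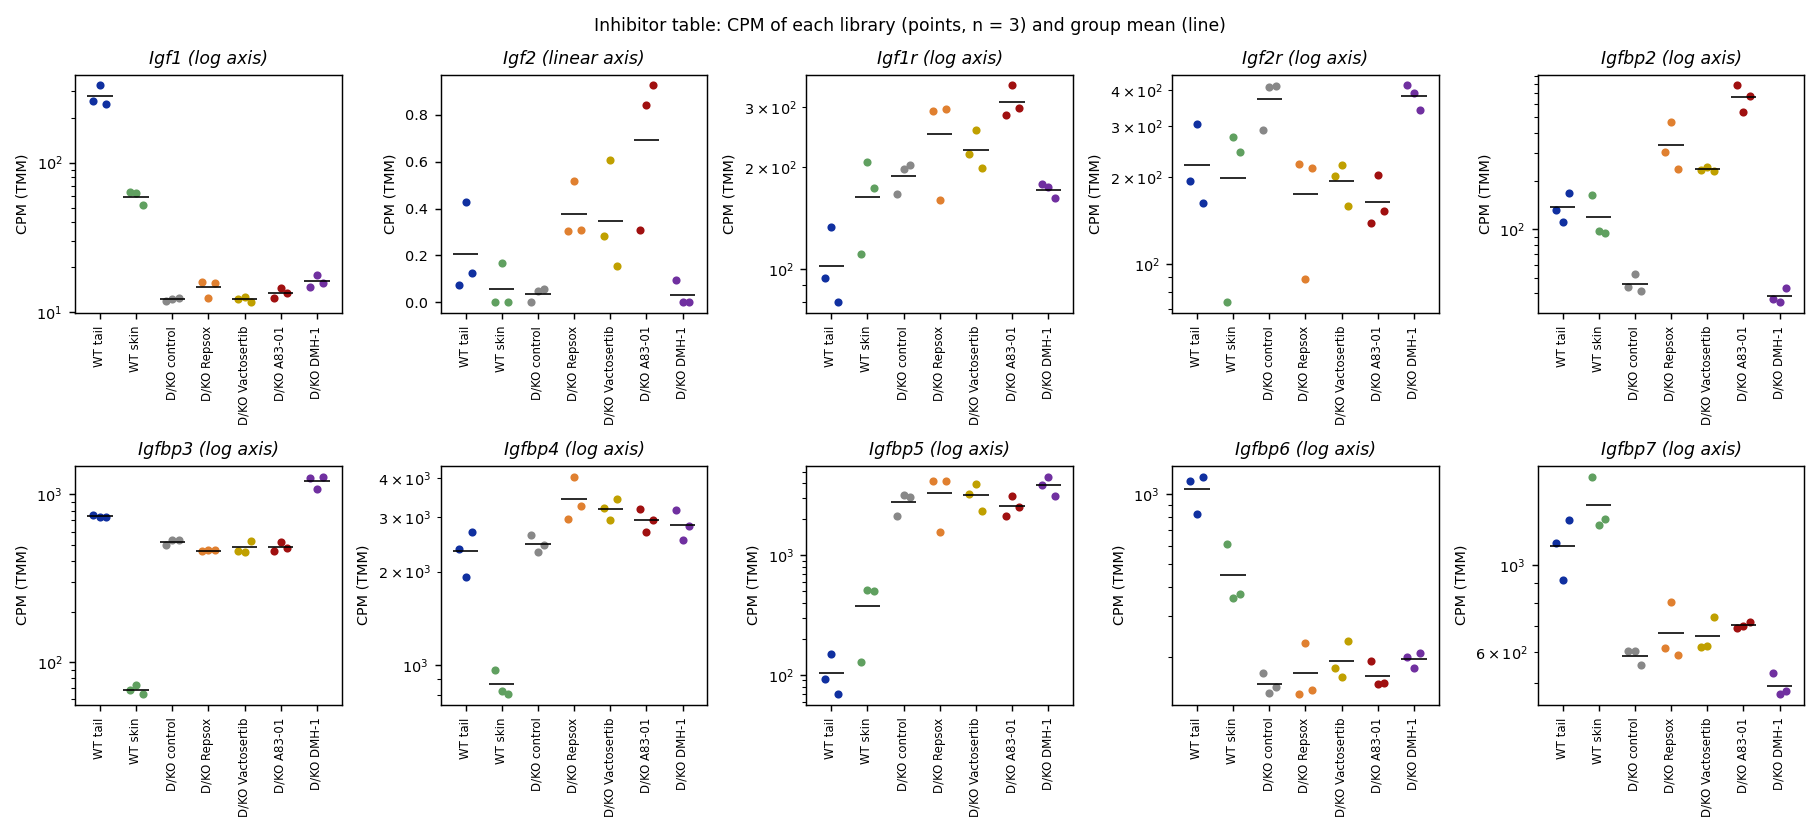
CPM of the 10 genes in 7 groups of the inhibitor table, with 1 point per library, a line at the mean of 3 libraries, and a log axis except for Igf2. Igfbp2 lies above the controls labelled D/KO in all libraries of the 3 ALK5 inhibitors and overlaps them in DMH-1, Igfbp3 is highest with DMH-1 at a mean of 1202 CPM, and Igf1 is highest in WT tail at 279 CPM.

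Igf2 was again read from few counts, 0, 1 and 1 in the controls, 8, 13 and 9 with Repsox, 6, 16 and 3 with Vactosertib, 8, 22 and 25 with A83-01 and 3, 0 and 0 with DMH-1. Every library of the 3 ALK5 inhibitors was above every control. The ratio of rates to the controls was 11.4 with Repsox (exact 95% interval 2.89 to 98.2), 11.4 with Vactosertib (2.85 to 99.6), 21.1 with A83-01 (5.58 to 179) and 1.1 with DMH-1 (0.126 to 13.1). As above, the gene passed the filter on low counts only through the groups where it was higher, and neither its calls by edgeR nor these ratios are used as support.

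Igf2r was lower with A83-01, at 138, 202 and 152 CPM against 290, 409 and 413 CPM in the controls (-1.17 ± 0.37, adjusted p = 0.0195), and with Repsox (-1.08 ± 0.36, adjusted p = 0.0389). With Vactosertib it read 202, 219 and 159 CPM, all below the controls, and did not pass (-0.94, adjusted p = 0.0827) except with 18 libraries, with no filter on low counts or with only the groups compared (adjusted p 0.000809 to 0.0317). Igf1r was higher with A83-01, at 284, 347 and 297 CPM against 166, 197 and 202 CPM (0.72 ± 0.22, adjusted p = 0.0189), and A83-01 differed from DMH-1 in both receptors (-1.22 ± 0.37, adjusted p = 0.0207 for Igf2r and 0.85 ± 0.22, adjusted p = 0.00814 for Igf1r). The A83-01 groups did not overlap the controls for either receptor, but both calls rested on single libraries. The Igf2r call was lost without A83-01 replicate 1 or 3 or control replicate 2 or 3 (adjusted p 0.0605 to 0.0832), and the Igf1r call without A83-01 replicate 2 or control replicate 1 (adjusted p 0.0767 and 0.0848). Against DMH-1 the Igf2r call was lost without A83-01 replicate 1 or 3 or DMH-1 replicate 1 or 2 (adjusted p 0.0531 to 0.0875). Repsox replicate 2 read long transcripts lower than the rest of its group, with a slope of -0.431 log2 units per doubling of exon length, and without it the Repsox change of Igf2r was -0.77 (adjusted p = 0.168) and that of Igfbp4, at 0.47 ± 0.14 (adjusted p = 0.0166) with it, was 0.33 (adjusted p = 0.105). Leaving out control replicate 2 or 3 also ended both Repsox calls (adjusted p 0.053 to 0.113). Igf1r with Repsox did not pass (0.41, adjusted p = 0.227) but did without Repsox replicate 2 (0.64, adjusted p = 0.0339). Igf1, Igfbp5, Igfbp6 and Igfbp7 passed with no inhibitor in the fit of all groups. With only the groups compared, Igf1 (0.40, adjusted p = 0.0476) and Igfbp6 (0.35, adjusted p = 0.0392) passed with DMH-1, and Igfbp7 with A83-01 (0.26, adjusted p = 0.0189). Igf1 also passed with DMH-1 with 18 libraries (adjusted p = 0.0455). Igfbp7 differed between A83-01 and DMH-1 (0.52, adjusted p = 0.0134), a call lost without DMH-1 replicate 2 (0.48, adjusted p = 0.0546).

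In all 4 of 10 members (3 without Igf2) passed with Repsox, where 20.7% of all genes did, 2 (1) with Vactosertib, against 18.1%, 4 (3) with A83-01, against 27.5%, and 1 (1) with DMH-1, against 7.25%. Between A83-01 and DMH-1, 6 of 10 members (5 without Igf2) differed, against 20.5%. Between Repsox and Vactosertib 0 of 10 members and 0 of all 15652 genes tested passed with edgeR (0%), where 347 genes had an unadjusted p under 0.05 and DESeq2 called 6. Endothelial markers summed to 240 to 288 CPM in the controls and 106 to 143 CPM with A83-01, while Igfbp2 rose, and with Repsox and Vactosertib they stood at 146 to 294 CPM and 211 to 276 CPM. Fibroblast markers summed to 79191 to 84468 CPM in the controls, 68130 to 85759 CPM with DMH-1 and 40601 to 52566 CPM with the 3 ALK5 inhibitors. Schwann and melanocyte markers summed to 6.61 to 9.54 CPM in the controls, 10.9 to 13.8 CPM with DMH-1, 13.7 to 17.6 CPM with Vactosertib, 17.2 to 19.1 CPM with Repsox and 30.8 to 38.9 CPM with A83-01. Muscle markers summed to 28.5 to 34.9 CPM in the controls, 13.6 to 20.03 CPM with DMH-1 and 11.5 to 14.5 CPM with A83-01, and keratinocyte markers to 3.96 to 6.08 CPM in the controls and 12.4 to 13.6 CPM with A83-01. The part of these markers was not tested.

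The wider pathway was followed through 30 other genes chosen by name: carriers, proteases and their inhibitors, other receptors, adaptors, kinases and RNA partners. At D/KO day 4 with VC, 25 were tested, 5 (4 without Igfals) rose and 10 fell, where 54.1% of all genes passed, with a median log2 fold change of -0.12 against 0.01 over all genes. The genes named by size of change were Igfals, the acid-labile subunit that completes the serum complex of IGF and Igfbp3 (5, 1 and 6 counts at D0+VC against 410, 435 and 457 counts at D4+VC), Pappa, the protease of Igfbp4 (-3.66 ± 0.26, adjusted p = 1.17e-14), and Stc1, a stanniocalcin that can inhibit such proteases (-2.44 ± 0.23, adjusted p = 3.69e-11). At WT day 4 with VC, 5 (4 without Igfals) rose and 7 fell, where 44.7% of all genes passed, and the same 3 genes were named, with Igfals at 2, 6 and 3 counts at D0+VC and 184, 153 and 170 counts at D4+VC, Stc1 at -2.60 ± 0.25 and Pappa at -1.86 ± 0.23. With A83-01, 7 of 26 (6 without Igfals) rose and 4 fell, where 27.5% of all genes passed, and the genes named were Igfals (6, 1 and 2 counts in the controls against 46, 32 and 32 counts), Stc1 (2.97 ± 0.25, adjusted p = 1.5e-08) and H19 (-0.81 ± 0.19, adjusted p = 0.00312). Like Igf2, Igfals passed the filter on low counts through the groups where it was higher, so only its counts are given and its rank is not used as support. Stc1 had opposite signs after reprogramming with VC and after A83-01.

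The genes whose group means ran most like each member over the 12 reprogramming groups are given as a description of these group means, which share libraries and lines. Igf1 was most like Dnm3 (Pearson r of 0.974) and Trp53inp2 (0.952), and Igf2 most like Cnmd (0.936) and Gm13816 (0.928). Igf1r was most like Crtc3 (0.973) and Rnf146 (0.938), and Igf2r like Ehmt2 (0.981) and Unc93b1 (0.962). Among the binding proteins, Igfbp2 was most like Slc7a8 (0.975) and Gstm2 (0.973), Igfbp3 like Cry2 (0.951) and Sdr42e1 (0.943), and Igfbp4 like Rgl3 (0.975) and Lrp3 (0.965). Igfbp5 was most like Lrig3 (0.98) and Ccdc8 (0.978), Igfbp6 like Qdpr (0.977) and Kxd1 (0.974), and Igfbp7 like Sdc4 (0.983) and Plcd1 (0.971). Igf1 and Igfbp2, which both rose with VC alone, had an r of 0.804 with each other.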

How the data were processed

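Counts were deposited by the authors as 2 tables of raw read counts per gene, 36 libraries of the reprogramming experiment and 24 of the inhibitor experiment, with the gene lengths used per kilobase. Per the labels and the study's methods, polyA RNA was sequenced as 150 bp pairs, trimmed with Trim Galore, aligned to GRCm39 with HISAT2 and counted with featureCounts of Subread; the versions and strand setting are not given in the sources used here. Each table was fitted once with edgeR 4.0.16 (R 4.3.3, limma 3.58.1) with 1 coefficient per group, after filterByExpr (minimum count 10, minimum total 15) and TMM scaling, leaving 15832 and 15652 genes. P-values were adjusted over all genes tested (Benjamini-Hochberg) and called under 0.05. Alternatives used DESeq2 1.42.0, its size factors, other filters, other samples, another baseline, a log2 threshold of 1 and each library left out. The tests were also run on simulated counts with the same spread for every gene and independent libraries, a setting that does not cover the real spread between replicates. Replicate pairs differed by more than sampling noise (chi-square per gene 3.22 to 413). Total counts limit precision, and intervals of count ratios cover counting error only. All 10 members are named, with the 3 largest called changes of the pathway list in 3 comparisons and the 2 genes most like each member. Members, lists and tests were chosen with earlier results of these data known.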

Additional observations from a re-analysis of the deposited data

Results flagged for a closer look

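Changes that differed between the D/KO and WT lines, by edgeR's interaction test with an adjusted p under 0.05, are given as log2 differences (D/KO change minus WT change). At day 4 without VC they were -0.66 for Igf2r, 1.55 for Igfbp2, -0.995 for Igfbp5 and 1.13 for Igfbp6. At day 2 with VC they were -1.60 for Igf1, -0.52 for Igf1r, -1.56 for Igfbp2, -1.53 for Igfbp3, -1.50 for Igfbp4 and -2.08 for Igfbp5. At day 4 with VC they were -2.05 for Igf1, -0.58 for Igf1r, -0.45 for Igf2r, -2.17 for Igfbp2, -1.91 for Igfbp3, -0.86 for Igfbp4, -3.60 for Igfbp5 and 0.76 for Igfbp6. Measured from day 0 without VC, the calls at day 2 with VC were lost for Igf1r (-0.37, adjusted p = 0.108), Igfbp2 (-0.76, adjusted p = 0.104) and Igfbp3 (-0.41, adjusted p = 0.13), and those at day 4 with VC for Igf1r (-0.43, adjusted p = 0.0566) and Igfbp6 (0.16, adjusted p = 0.642), while Igf2r at day 2 with VC gained one (-0.62, adjusted p = 0.00883). The Igf1r value at day 2 with VC and the Igf2r value at day 4 with VC were each lost without any of several single libraries (adjusted p up to 0.0825 and 0.146).

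Further differences came from comparisons added after the data were seen. The effect of VC alone in D/KO minus that in WT passed for 3 of 10 members, against 15.3% of all genes, with 1.12 for Igfbp3, 0.77 for Igfbp5 and -0.60 for Igfbp6. The day 4 change with VC minus that without VC passed in D/KO for 6 members, against 26.9% of all genes, with -3.34 for Igf1, -0.58 for Igf1r, -5.00 for Igfbp2, -3.26 for Igfbp3, -2.04 for Igfbp5 and -1.10 for Igfbp7. In WT it passed for 4 members, against 15.3% of all genes, with -1.76 for Igf1, -1.29 for Igfbp2, -0.83 for Igfbp3 and -0.94 for Igfbp7. For Igf1 and Igfbp2 these differences include the rise with VC alone at day 0.

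The level of Igfbp5 in untreated D/KO against WT had opposite signs in the 2 pairs of lines, -1.87 among the reprogramming libraries and 4.74 among the inhibitor libraries, with no overlap of libraries in either. The 2 tables were normalised separately and the difference was not tested.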

How the results depend on the processing

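Of 230 member values, 115 were called, and these counts include Igf2. Over settings other than leaving out a library, 610 results of called values kept their call, 19 lost it and 4 changed sign; over single libraries left out, 723 kept it and 75 lost it. With a log2 fold change of at least 1 also required, the members called became 4 in the libraries labelled D/KO against WT tail tip, 2 at D/KO day 2 and 5 with VC added, 2 and 4 for the differences between lines at day 4 without and with VC, 2 for VC alone in each line, 2 at WT day 2 and 4 at WT day 4 with VC. Shares of all genes were not counted under the settings named here, so these counts show only how the calls moved. DMH-1 had 2 called members with 18 libraries and 3 with only the groups compared, Repsox 1 with only the groups compared, and the difference between lines at day 2 had 3 without a filter on low counts, of which the cause was not tested. With Vactosertib and only the groups compared, Igf2r (adjusted p = 0.000809) and Igfbp4 (0.37, adjusted p = 0.0151) gained calls. In the main fit that Igfbp4 value had an adjusted p of 0.0641, and it passed under 4 settings (adjusted p 0.0151 to 0.0489). From day 0 without VC, WT Igf1 was 0.52 at day 2 and 0.39 at day 4 with VC, WT Igfbp2 0.70 at day 2, D/KO Igfbp3 0.30 at day 2 and WT Igfbp5 -0.84 at day 2, since VC alone had moved the day 0 level. That WT Igfbp5 value, 0.02 and not called, was -0.000965 with at least 10 counts in every library, -0.0045 with DESeq2 or its size factors, and -0.0394 to 0.0789 with a library left out. WT Igf2r at day 2 with VC was -0.0479 to 0.109 with a library left out.

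Shares of all genes were not counted with single libraries left out, so the ranges below show only how the calls moved. With 1 library left out, the members called ranged from 3 to 3 with A83-01, 4 to 6 for A83-01 against DMH-1, 1 to 1 with DMH-1, 1 to 3 with Repsox, 1 to 2 with Vactosertib and 0 to 0 between the last 2. They ranged from 7 to 8 for the libraries labelled D/KO against WT tail tip, 5 to 6 for skin and 4 to 5 for D/KO against WT at day 0. Without VC they ranged from 4 to 5 and 6 to 7 at D/KO days 2 and 4, and 3 to 6 and 5 to 6 in WT. With VC they ranged from 7 to 9 and 9 to 9 in D/KO, and 5 to 6 and 7 to 7 in WT. For VC alone they ranged from 5 to 5 in D/KO and 3 to 5 in WT. The differences between lines ranged from 0 to 1, 4 to 6, 5 to 6 and 7 to 8 at day 2, day 4, day 2 with VC and day 4 with VC. No paired analysis was possible because the library numbers in the labels are unique and the groups share none. Igf2 rested on few counts, at most 45 in any library, and the part of depth and of the exons shared with Gm49394 was not tested.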

Other observations

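The 3 WT libraries of the 4FJ line labelled TGFB, which have no control of their line in the inhibitor table, had Igf1, Igfbp3, Igfbp4 and Igfbp6 below every other library of that table, while other members, such as Igfbp7, overlapped other groups. Igfbp3 was read at 11.8, 12.5 and 16.6 CPM, Igf1 at 3.20, 4.38 and 3.81 CPM, Igfbp4 at 570.1, 638 and 578 CPM, Igfbp6 at 70.02, 82.0 and 81.3 CPM, Igfbp5 at 224, 220 and 219 CPM, and Igfbp7 at 900.4, 891 and 1104 CPM. Muscle markers summed to 1711 to 2063 CPM in these libraries and endothelial markers to 0.968 to 1.83 CPM.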
